A study of Oryza sativa Japonica Group with 36 samples.

Results

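The last 2 time points of a field series on rice leaves, 36 and 44 days after heading (DAH), were compared in the flag leaf (FL), the uppermost leaf below the panicle, and the second leaf (SL) next to it. All libraries of these time points were taken, 12 of the 36 in the series, and the change was measured over all genes with leaf as a factor. The series followed mRNA by poly(A) sequencing at 6 time points from 4 to 44 DAH, with 3 replicates of each leaf at each. The 4 groups compared here were FL at 36 DAH, FL at 44 DAH, SL at 36 DAH and SL at 44 DAH, with 3 libraries in each. All came from untreated plants of the japonica cultivar Dongjin grown in a paddy field in a single season, and by design the groups differed in leaf and time only. According to the study's methods, each replicate was a pool of the middle parts of several leaves and samples were taken in the same morning hour at every time point. The leaves of a group were thus sampled on 1 day, so that a time point and its day of harvest cannot be told apart, and the p-values below measure the spread between pools sampled at once.

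Leaves age while the grain fills. Chloroplast proteins, which hold most of the nitrogen of a leaf, are broken down and their nitrogen is moved to the grain, and nuclear genes for photosynthesis are generally turned down as this proceeds. Many of these genes, above all those for the chlorophyll-binding antenna proteins, are also under the control of light and of the circadian clock, a loop of transcription factors expressed at set times of the day. Plant hormones act on the process as well, with abscisic acid (ABA) and ethylene known to promote leaf senescence and cytokinin to delay it.

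The data are CPM values, read counts scaled to effective library sizes, and a change is given as the difference of log2(value + 1) between 44 and 36 DAH, averaged over both leaves unless a leaf is named. The libraries held 5713546 to 17205973 reads on genes, so that 3 reads, taken as the floor, corresponded to 0.172 to 0.511 CPM. The first principal component held 53.8% of the variance and separated all libraries of 36 DAH from all of 44 DAH. SL at 36 DAH replicate 3 and SL at 44 DAH replicate 2 stood apart from the other replicates of their groups, with 1207 and 1245 genes at least 2-fold from them against 43 to 475 in the other 10 libraries. Values without both are therefore given for several results, and further list counts that changed are given at the end. Leaf genes were abundant throughout, with a summed 8225 to 18016 CPM for Rubisco small subunits and Rubisco activase. Of the markers of other tissues, seed storage genes summed to 8.00 to 10.4 CPM at 36 DAH and 13.9 to 19.6 CPM at 44 DAH, nearly all from GluA2, a glutelin gene, which rose by 0.86 ± 0.11 on the log2 scale (SE, limma, Benjamini-Hochberg adjusted p = 4.73e-05). Meristem and cell division genes stayed at or below 0.688 CPM in every library with OSH1 at 0, and the root marker Lsi2 was at 0 while Lsi1, a silicon channel, had 21.02 to 41.1 CPM. Whether these moved with the leaf results for a shared reason was not tested. In whole leaves, fewer cells of a type and less RNA per cell cannot be told apart.

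Of 31138 genes with a read in any of the 12 libraries, 12326 (39.6%) passed an adjusted p of 0.05 in limma, 5875 of them higher at 44 DAH (18.9%) and 6451 lower (20.7%). Most changes were small. A log2 change of at least 1 was reached by 1524 called genes upward (4.89%) and 1335 downward (4.29%), a change of at least 2 by 183 and 156, and a change of at least 3 by 32 and 16. The median change of all genes tested was -0.02. These shares and this median are the background for the counts of every list below. In lists this short a count near them is no result about the list. The lists were chosen with earlier results of these data known, so counts set against the background are a description. In 7929 genes (25.5%) the libraries of the time points did not overlap within either leaf, with 12.3% higher and 13.2% lower at 44 DAH. Without the 2 libraries that stood apart, 14001 genes were called, 6551 higher and 7450 lower.

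FL and SL were then compared in how they changed. FL had 8696 called genes, 4150 higher (13.3%) and 4546 lower (14.6%), and SL had 7615, 3781 higher (12.1%) and 3834 lower (12.3%). The 6220 genes called in both leaves made up 71.5% of the FL calls and 81.7% of the SL calls, and 6219 of them had the same direction. The exception, Os01g0136850, stayed below 0.5 CPM in every library. Among the genes called over both leaves the median size of the change was 0.69 in FL and 0.63 in SL. For the difference between leaves in the change, no gene passed in limma (1226 had an unadjusted p below 0.05) and none in the quasi-likelihood test of edgeR (717 unadjusted). A difference between leaves is therefore claimed for no gene below, and values of each leaf are given as they are.

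**Figure D1:**
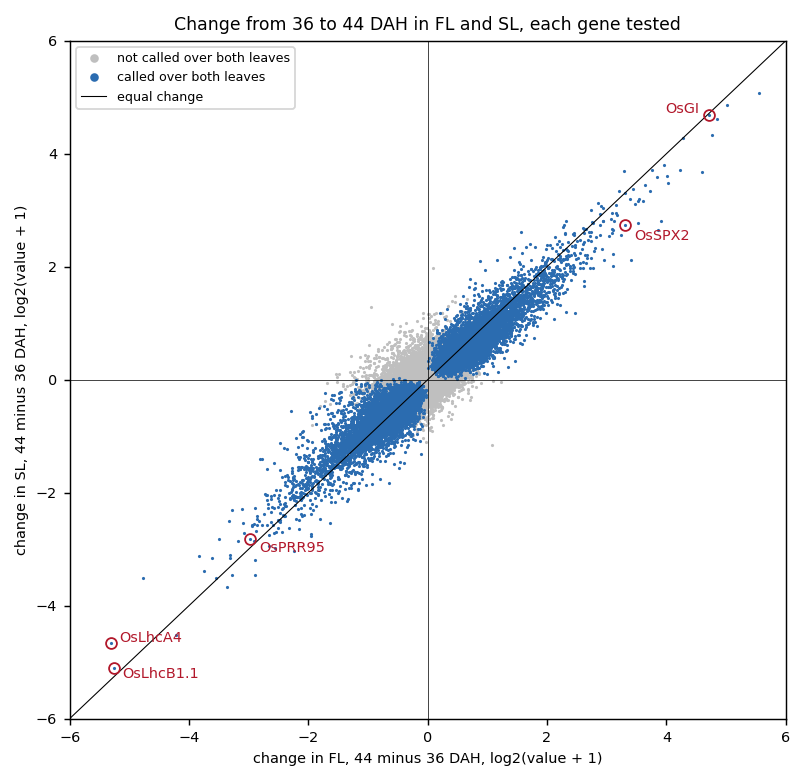
Change from 36 to 44 DAH in FL (x axis) against that in SL (y axis), both as differences of log2(value + 1), with 1 point for each of the 31138 genes tested and the 12326 genes called over both leaves in blue. The points lie along the line of equal change, with OsGI at 4.71 in FL and 4.69 in SL at one end and OsLhcB1.1 at -5.27 and -5.11 at the other.

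The gene with the smallest adjusted p among the circadian clock genes was OsGI, the rice GIGANTEA gene, which acts between the clock and flowering. OsGI had 19.9, 21.6 and 24.7 CPM in FL and 13.4, 20.2 and 14.7 in SL at 36 DAH. It had 621, 561 and 617 CPM in FL and 478, 349 and 492 in SL at 44 DAH. All libraries of 44 DAH were far above all of 36 DAH in both leaves, a 27.2-fold ratio of the means and a log2 change of 4.70 ± 0.11 (SE, adjusted p = 1.68e-10).

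Of the 8 clock genes, 5 rose and 2 fell (median change 1.07, against -0.02 over all genes tested). In these 7 the time points did not overlap in either leaf, beside 25.5% of all genes tested. The pseudo-response regulators are repressors that, as known from Arabidopsis, act one after another through the day. OsPRR37 had 4.53 to 7.95 CPM over the 6 libraries of 36 DAH and 30.1 to 53.9 at 44 DAH (change 2.57 ± 0.15, adjusted p = 1.02e-07), and OsPRR73 had 9.89 to 27.4 against 56.5 to 112 CPM (2.16 ± 0.18). OsPRR1, the rice counterpart of TOC1, had 2.01 to 4.16 against 5.43 to 10.002 CPM (1.11 ± 0.19). The family did not move as one.

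OsPRR95 went the other way. It had 97.3, 159 and 172 CPM in FL and 69.8, 131 and 108 in SL at 36 DAH, and 17.6, 13.9 and 19.2 in FL and 15.5, 9.97 and 14.8 in SL at 44 DAH. Every library of 44 DAH was below every library of 36 DAH, and the change was -2.90 ± 0.18 (adjusted p = 1.66e-07). OsCCA1, a morning-expressed MYB factor of the central loop, had 2304 to 4770 CPM at 36 DAH and 667 to 1748 at 44 DAH (-1.59 ± 0.24). OsPCL1, a GARP factor of the evening complex, was near the floor at 36 DAH, at most 0.489 CPM, and had 0.932 to 2.39 CPM at 44 DAH. OsELF3-1, of the same complex, did not pass (-0.14 ± 0.17, adjusted p = 0.562).

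The levels at 28 DAH are set beside these as a description, since the comparisons of 36 DAH with its neighbours share the samples of 36 DAH. At 28 DAH, OsGI had a mean of 515 CPM in FL and 553 in SL, and OsPRR95 had 15.4 and 13.9. In both genes the level at 36 DAH thus stood apart from those on either side of it. For OsCCA1 the mean over both leaves at 28, 36 and 44 DAH was 2264, 4035 and 1359 CPM. The methods name the same sampling hour for all days, the labels give no clock time for a library, and its part in these values was not tested.

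**Figure D2:**
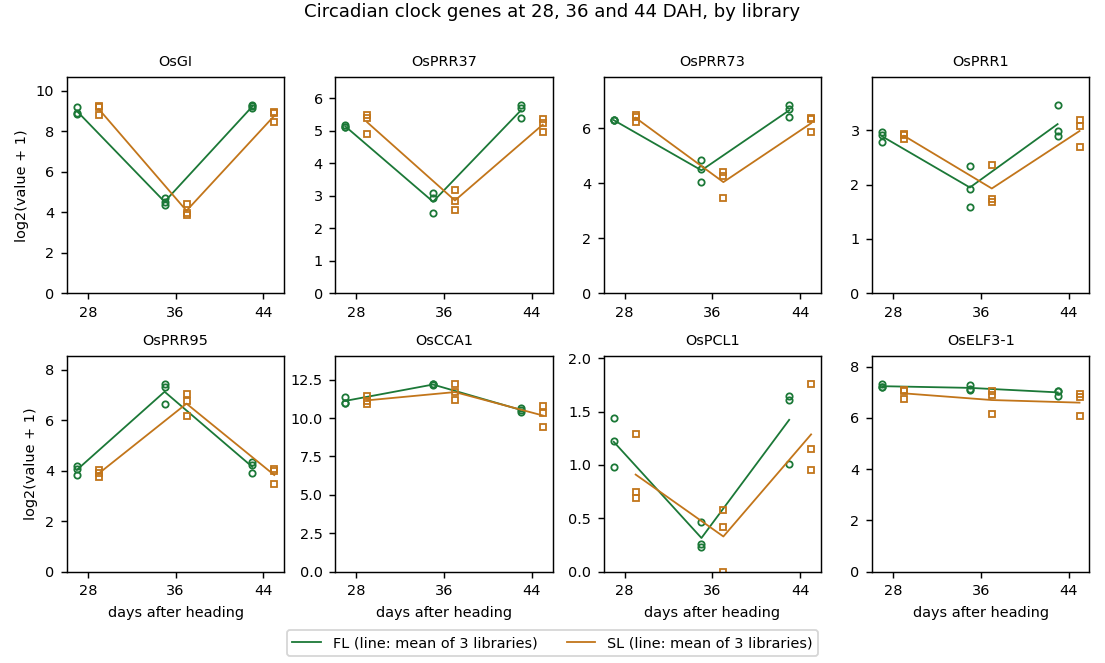
Level of 8 circadian clock genes, as log2(value + 1), at 28, 36 and 44 DAH, with each library as a point, FL in green and SL in orange, offset to either side of the day, and lines through the means of 3 libraries. OsGI, OsPRR37 and OsPRR73 are lowest at 36 DAH, OsPRR95 is highest there, and OsELF3-1 is nearly level.

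Flowering genes fell or did not pass. Hd3a, which encodes a mobile flowering signal, fell by 1.64 ± 0.15 on the log2 scale (adjusted p = 3.26e-06). It had 6.78 to 12.8 CPM at 36 DAH and 1.37 to 3.22 at 44 DAH. Ehd1, a B-type response regulator upstream of Hd3a, fell from 2.22 to 5.87 CPM to 0.158 to 0.9897 CPM, that is, to levels near the floor. Hd1, the rice CONSTANS gene, had a change of 0.25 ± 0.18 and did not pass (adjusted p = 0.317). Of 5 phytochrome and GLK genes, whose products sense light or activate chloroplast genes, 2 rose and 1 fell. OsPHYB (0.60 ± 0.15) and OsPHYC (0.30 ± 0.08) rose, but neither was called in SL alone and for each the time points overlapped in at least 1 leaf. OsGLK1 fell by 0.77 ± 0.07 on the log2 scale, from 251 to 280 CPM to 144 to 178 CPM with no overlap, and OsGLK2 had 0.13 ± 0.08 (adjusted p = 0.205).

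The antenna of photosystem II showed the largest fall of any list. Its Lhcb proteins bind most of the chlorophyll of a leaf and pass light energy to the reaction centre. All 8 LhcB genes fell, without overlap between time points in either leaf, with changes from -1.70 to -5.19 and a median of -2.70. Of all genes tested, 13.2% were lower without overlap. Summed over the 8 genes, the level was 2370, 3045 and 2813 CPM in FL and 1227, 1646 and 4413 in SL at 36 DAH. At 44 DAH it was 287, 355 and 269 CPM in FL and 284, 378 and 264 in SL. The highest of all 12 sums was that of SL at 36 DAH replicate 3, one of the libraries that stood apart.

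OsLhcB1.1 fell most. It had 233, 370 and 374 CPM in FL and 103, 192 and 944 in SL at 36 DAH. At 44 DAH it had 5.30, 10.9 and 6.61 CPM in FL and 3.41, 9.82 and 8.70 in SL. No library of 44 DAH exceeded 10.9 CPM while none of 36 DAH was under 103, and the ratio of the means was 49.5-fold, with a log2 change of -5.19 ± 0.44 (adjusted p = 1.90e-06) that was -4.94 without the 2 libraries that stood apart. OsLhcB2, the other major trimer subunit, fell by 3.57 ± 0.26 on the log2 scale and OsLhcB6, a minor antenna protein, by 3.48 ± 0.27. OsLhcB1.2 had the smallest change, -1.70 ± 0.19, from 97.9 to 248 CPM to 31.9 to 59.5 CPM. The Lhcb1 copies are close in sequence, so that reads may be divided between them by the counting.

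The antenna of photosystem I divided. OsLhcA4 had 475, 508 and 456 CPM in FL and 238, 303 and 617 in SL at 36 DAH, and 9.67, 13.3 and 10.5 in FL and 11.6, 13.9 and 13.7 in SL at 44 DAH. The groups were far apart, with a change of -4.99 ± 0.21 (adjusted p = 7.58e-09). OsLhcA2 and OsLhcA3 fell by 1.68 ± 0.21 and 1.93 ± 0.14 on the log2 scale. OsLhcA6 rose by 1.58 ± 0.20 (adjusted p = 5.14e-05), from 12.4 to 25.3 CPM to 39.1 to 81.8 CPM, with no overlap in either leaf. At 28 DAH, OsLhcB1.1 had means of 25.2 CPM in FL and 11.3 in SL, OsLhcA4 22.3 and 18.5, and OsLhcA6 43.6 and 38.9.

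Of the 11 nuclear photosystem subunits measured, 9 fell and none rose (median change -0.70), and without the 2 libraries that stood apart 10 fell. OsPsaO, a small subunit at the antenna docking side of photosystem I, fell most, from 372 to 862 CPM to 69.7 to 177 CPM (-2.30 ± 0.22, adjusted p = 5.61e-06). OsPsaK and OsPsaN fell by 1.43 ± 0.21 and 1.19 ± 0.20 on the log2 scale. The subunits of the oxygen-evolving complex of photosystem II fell less, OsPsbO by 0.69 ± 0.17, OsPsbP by 0.69 ± 0.14 and OsPsbQ by 1.06 ± 0.18. The call of OsPsaH (-0.70, adjusted p = 0.0198) ended without replicate 1 or 2 of FL at 36 DAH or replicate 1 or 3 of FL at 44 DAH (adjusted p = 0.0503 to 0.0566). In each of these 11 genes, as in the 8 LhcB genes, SL at 36 DAH replicate 3 was the highest of the 3 SL libraries of 36 DAH. Without it and SL at 44 DAH replicate 2, the change of OsPsaO was -2.30 and that of OsPsaK -1.39.

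Electron transport and Rubisco genes differed in direction. OsPetE, plastocyanin, fell by 0.84 ± 0.21 on the log2 scale, while LFNR1, a leaf ferredoxin-NADP reductase, rose by 0.34 ± 0.10 (adjusted p = 0.0175), and the other 2 genes of that list did not pass. RBCS-A, a Rubisco small subunit gene, had 1491 to 2365 CPM at 36 DAH and 2202 to 3400 at 44 DAH and rose by 0.65 ± 0.18 (adjusted p = 0.00985). The small subunit copies are near-identical, so that their single values are uncertain. OsRca, Rubisco activase, had 10270 to 15591 CPM at 36 DAH and 5020 to 8878 at 44 DAH with no overlap, and a change of -0.78 ± 0.31 that did not pass over both leaves (adjusted p = 0.0622). Without the 2 libraries that stood apart it passed, at -0.65 (adjusted p = 0.0390).

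Chlorophyll synthesis genes moved in both directions, 4 higher and 6 lower of 11 (median change -0.67). The magnesium chelatase subunits divided, with OsChlD rising by 0.77 ± 0.08 and OsChlH, the porphyrin-binding subunit, falling from 904 to 2041 CPM to 345 to 783 CPM (-1.19 ± 0.19, adjusted p = 0.000274). Upstream of the chelatase, OsGSA (1.18 ± 0.08) and OsPPOX (1.55 ± 0.15) rose and OsGluTR, the first committed enzyme, fell by 0.84 ± 0.17 on the log2 scale. Downstream of it, OsDVR, OsPORB and OsCAO1, the enzyme that makes chlorophyll b, fell by 1.32, 0.90 and 1.08 on the log2 scale, and OsCHLG, chlorophyll synthase, rose by 0.55 ± 0.11. OsPORA fell as well, within levels of at most 1.00 CPM.

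The 4 chlorophyll breakdown genes also divided. OsSGR, the stay-green gene that removes magnesium from chlorophyll a, had 45.0, 49.4 and 68.3 CPM in FL and 89.5, 72.2 and 80.3 in SL at 36 DAH. It had 28.1, 35.1 and 34.4 CPM in FL and 31.01, 40.2 and 32.9 in SL at 44 DAH. All libraries of 44 DAH were the lower ones, with a change of -0.95 ± 0.13 (adjusted p = 9.58e-05). OsRCCR1, which acts on the opened ring, fell by 0.62 ± 0.16 on the log2 scale. OsNYC1, a chlorophyll b reductase, rose by 0.47 ± 0.08 (adjusted p = 0.000474), from 101.5 to 162 CPM to 146 to 240 CPM. OsNOL, its partner, had 0.42 ± 0.14 (adjusted p = 0.0252), a call that ended when any of 6 libraries (FL at 36 DAH replicates 2 and 3, FL at 44 DAH replicates 1 and 3, SL at 36 DAH replicates 2 and 3) was left out (adjusted p = 0.0521 to 0.0697) and also without the 2 that stood apart (0.0703).

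**Figure D3:**
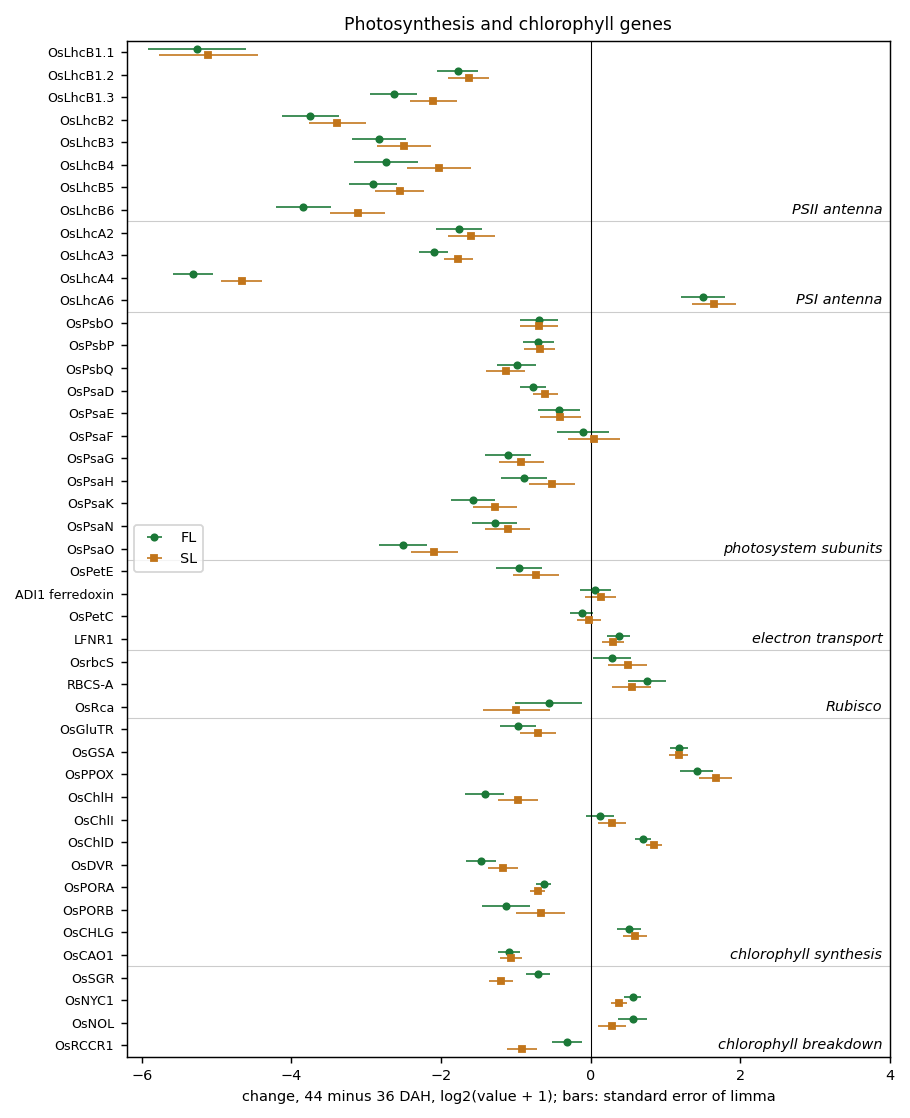
Change from 36 to 44 DAH in log2(value + 1) for each gene of the photosynthesis and chlorophyll lists, FL as green circles and SL as orange squares, with bars for the standard error of limma. The antenna genes lie far to the left, to -5.19 over both leaves in OsLhcB1.1, apart from OsLhcA6 on the right, while Rubisco and chlorophyll genes lie on both sides of 0.

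Of the NAC transcription factors, a family with several regulators of senescence and stress, 5 of 9 rose and 2 fell. Os10g0571600, annotated as a NAC gene, had 1.0997, 1.26 and 2.47 CPM in FL and 1.22, 1.22 and 1.27 in SL at 36 DAH. At 44 DAH it had 21.6, 22.8 and 20.7 CPM in FL and 22.1, 11.3 and 16.93 in SL. The time points were widely separated, with a change of 3.05 ± 0.17 (adjusted p = 7.20e-08), and the level at 28 DAH was between them, with means of 4.57 CPM in FL and 3.96 in SL. OsNAC6, a stress-induced member, rose by 1.04 ± 0.10, from 247 to 352 CPM to 467 to 717 CPM. OsNAP, an activator of senescence genes in rice, fell by 0.27 ± 0.06 on the log2 scale (adjusted p = 0.00270), from 153 to 209 CPM to 123 to 176 CPM, and OsNAC5 fell by 0.89 ± 0.10. Of 4 WRKY genes, OsWRKY72 rose (0.46 ± 0.13) and OsWRKY76, a repressor of defence responses, fell by 1.25 ± 0.25 on the log2 scale, from 1.90 to 7.67 CPM to 0.339 to 2.04 CPM.

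In ABA metabolism 4 of 6 genes rose and none fell (median change 1.02). NCED enzymes make the committed step of ABA synthesis. OsNCED3 had 0.475 to 2.00 CPM at 36 DAH and 3.12 to 8.86 at 44 DAH (1.61 ± 0.25, adjusted p = 0.000243). A second NCED gene, Os12g0617400, had 1.0997, 1.83 and 2.06 CPM in FL and 0.555, 0.856 and 1.74 in SL at 36 DAH. It had 10.2, 12.5 and 8.98 CPM in FL and 9.71, 9.36 and 12.4 in SL at 44 DAH, all above 36 DAH (2.32 ± 0.18, adjusted p = 8.23e-07). OsABA8ox3, an ABA 8'-hydroxylase that starts the breakdown of the hormone, rose too, from 10.2 to 16.6 CPM to 36.3 to 52.0 CPM (1.73 ± 0.12), and OsZEP, which acts before NCED, rose by 0.43 ± 0.10. The other 2 breakdown genes, OsABA8ox1 and OsABA8ox2, did not pass (-0.34 ± 0.27 and 0.29 ± 0.20).

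The list of ABA-responsive genes showed little, with 1 of 8 higher and 1 lower. OsDhn1, a dehydrin, rose by 1.33 ± 0.13 (adjusted p = 4.73e-06), from 33.6 to 62.1 CPM to 98.6 to 130 CPM. OsbZIP23, an ABA-responsive bZIP factor, fell by 0.60 ± 0.12 on the log2 scale. The RAB16 genes and OsLEA3 stayed below 1 CPM in every library.

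DREB genes, whose products bind the dehydration and cold response element, fell in 5 of 9 cases and rose in none (median change -0.65). OsDREB2B had 59.7 to 72.2 CPM at 36 DAH and 43.9 to 52.6 at 44 DAH (-0.45 ± 0.06, adjusted p = 4.44e-05). The cold-responsive DREB1 genes were lower in level and more scattered. OsDREB1B had 4.85, 6.24 and 13.8 CPM in FL and 14.997, 5.50 and 50.5 in SL at 36 DAH, and 1.12, 3.48 and 3.56 in FL and 2.73, 5.94 and 2.79 in SL at 44 DAH. The time points overlapped in SL, SL at 36 DAH replicate 3 was by far the highest, and the change of -1.60 ± 0.45 (adjusted p = 0.0124) was -1.35 without the 2 libraries that stood apart (adjusted p = 0.0107). OsDREB1A behaved likewise (-1.31, and -1.10 without them). OsDREB1G (-1.42, adjusted p = 0.0413) lost its call without any one library of FL or of SL at 44 DAH (adjusted p = 0.0565 to 0.107) and had 0.0509 after quantile normalization.

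The type-A response regulators, which are induced by cytokinin and feed back on its signalling, fell in 5 of 6 cases (median change -2.11). OsRR10 had 42.3, 40.3 and 47.5 CPM in FL and 34.8, 46.2 and 45.4 in SL at 36 DAH. It had 5.72, 7.44 and 5.09 CPM in FL and 4.60, 7.61 and 4.35 in SL at 44 DAH. The libraries of 44 DAH were all far below (-2.70 ± 0.14, adjusted p = 3.11e-08), and its level at 28 DAH was nearer that of 36 DAH, with means of 41.4 CPM in FL and 77.6 in SL. OsRR9, a near-identical paralog whose reads may not be separable from those of OsRR10, fell by 2.47 ± 0.13 on the log2 scale, OsRR6 by 2.26 ± 0.22, OsRR4 by 1.96 ± 0.25 and OsRR2 by 1.66 ± 0.10. OsRR1 had -0.38 ± 0.18 and did not pass over both leaves (adjusted p = 0.111). Within FL all 6 genes were called lower, and within SL 5. Summed over the 6 genes, the level was 263 to 408 CPM at 36 DAH and 60.9 to 95.9 at 44 DAH.

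Jasmonate genes fell in 6 of 16 cases and rose in 2 (median change -0.27), beside 20.7% lower and 18.9% higher of all genes. Of the synthesis enzymes, OsAOC, allene oxide cyclase, fell by 1.25 ± 0.14 on the log2 scale (adjusted p = 2.16e-05), from 27.2 to 56.7 CPM to 10.8 to 20.4 CPM, OsAOS1 by 1.05 ± 0.14 and OsOPR7 by 0.41 ± 0.08. The lipoxygenase CM-LOX2 (0.66 ± 0.15) and OsJAR1 (0.43 ± 0.11), which joins jasmonate to isoleucine, rose. The receptor gene OsCOI1a fell by 0.53 ± 0.05. Among the JAZ repressors OsJAZ8 fell by 0.94 ± 0.15 and OsJAZ10 by 0.98 ± 0.30 on the log2 scale, the latter with the highest value in SL at 36 DAH replicate 3 (33.7 CPM) and without a call when FL at 36 DAH replicate 3 was left out (adjusted p = 0.0638). Of 7 ethylene genes 1 rose and 2 fell, among them the receptor gene OsETR2 (-0.76 ± 0.19).

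Phosphate genes rose in 5 of 7 cases and fell in 1 (median change 0.57). SPX proteins sense the phosphate status of the cell and hold back PHR factors. OsSPX2 had 58.7, 35.8 and 47.8 CPM in FL and 75.5, 73.1 and 88.8 in SL at 36 DAH. It had 475, 423 and 516 CPM in FL and 527, 592 and 480 in SL at 44 DAH. All 6 libraries of 44 DAH were several times above those of 36 DAH (3.02 ± 0.14, adjusted p = 1.65e-08), and the means at 28 DAH were 164 CPM in FL and 117 in SL. OsSPX1 rose by 1.87 ± 0.16, a purple acid phosphatase gene, Os01g0776600, by 0.97 ± 0.16, and OsPT4, a phosphate transporter, by 0.57 ± 0.09. OsPHR2, the central activator, rose by 0.27 ± 0.06 (adjusted p = 0.00207), and OsPT8, a high-affinity transporter, fell by 1.09 ± 0.10 on the log2 scale. OsSPX3 stayed at or below 0.475 CPM.

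Nitrogen and carbon genes were divided. Glutamine synthetase, which fixes and refixes ammonium, fell in its chloroplast form OsGS2 (-0.85 ± 0.11, 1394 to 1875 CPM against 839 to 975) and in the cytosolic OsGS1;1 (-1.14 ± 0.20). OsNIA1, nitrate reductase, rose by 0.93 ± 0.09, from 88.5 to 129 CPM to 196 to 240 CPM, and OsGDH1, a glutamate dehydrogenase, rose by 0.52 ± 0.12. The other 4 of the 8 nitrogen genes and both amino acid transporters of the lists did not pass. Of 9 sugar genes tested 2 rose, OsSWEET14, a sugar efflux carrier (0.69 ± 0.12), and OscFBP1, the cytosolic fructose bisphosphatase of sucrose synthesis (0.33 ± 0.10), and 1 fell. OsPPDKB, pyruvate orthophosphate dikinase, which supplies phosphoenolpyruvate, had 1404, 1509 and 1465 CPM in FL and 1229, 1471 and 1270 in SL at 36 DAH. It had 301, 279 and 319 CPM in FL and 316, 323 and 400 in SL at 44 DAH. The replicates of each time point were close and the change was -2.11 ± 0.11 (adjusted p = 3.14e-08), with 28 DAH means of 648 CPM in FL and 973 in SL. The glyoxylate cycle genes of the same list of 3 did not pass.

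Heat shock and chaperone genes gave 3 lower and 1 higher of 11 (median change -0.11), a share of calls no larger than the 39.6% of all genes. HSP82, a cytosolic Hsp90, had 82.5 to 114 CPM at 36 DAH and 17.97 to 24.999 at 44 DAH (-2.13 ± 0.10, adjusted p = 2.53e-08), beside 28 DAH means of 28.2 CPM in FL and 19.4 in SL. The Hsp70 gene Os01g0840100 fell by 2.38 ± 0.13 on the log2 scale and OsBiP1, the Hsp70 of the endoplasmic reticulum, by 1.09 ± 0.09. OsHsfA2e rose by 0.38 ± 0.09. The small heat shock protein genes, which are known for strong induction by heat, stayed below 5 CPM and none passed.

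Aquaporins fell in 7 of 11 cases and rose in 1 (median change -0.68). OsPIP1;1, a plasma membrane intrinsic protein, had 535 to 865 CPM at 36 DAH and 163 to 255 at 44 DAH (-1.75 ± 0.14, adjusted p = 9.80e-07). The tonoplast genes OsTIP1;2 and OsTIP1;1 fell by 2.02 ± 0.22 and 1.38 ± 0.16 on the log2 scale, and OsPIP2;1 by 0.68 ± 0.13. Of 8 phenylpropanoid and flavonoid genes 4 fell and none rose (median change -0.70). These included OsCOMT, a methyltransferase of lignin synthesis (-1.11 ± 0.14, 153 to 245 CPM against 74.9 to 111), Os4CL3 (-1.07 ± 0.17) and PAL, the entry enzyme (-0.87 ± 0.21). For PAL, the time points overlapped in SL, with 113 to 137 CPM at 36 DAH and 54.3 to 132 at 44 DAH.

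Among the remaining lists, 3 of 6 antioxidant genes fell and none rose. CatA and CatB, catalases, fell by 0.67 ± 0.16 and 0.45 ± 0.08 on the log2 scale and OsSODCc1, a cytosolic superoxide dismutase, by 0.87 ± 0.15. Of 6 protease and autophagy genes tested 3 fell, each by less than 0.4 on the log2 scale, with OsVPE1, a vacuolar processing enzyme, at -0.37 ± 0.06 (adjusted p = 0.000165). Of 7 iron genes 1 rose and 1 fell, OsNAS3, a nicotianamine synthase, by 1.28 ± 0.18, and the ferritin copies, whose reads may not be separable, did not pass. Of 3 defence genes OsNPR1, the salicylate co-activator, rose by 0.96 ± 0.08 (adjusted p = 1.98e-06), from 21.8 to 29.2 CPM to 46.4 to 56.3 CPM.

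**Figure D4:**
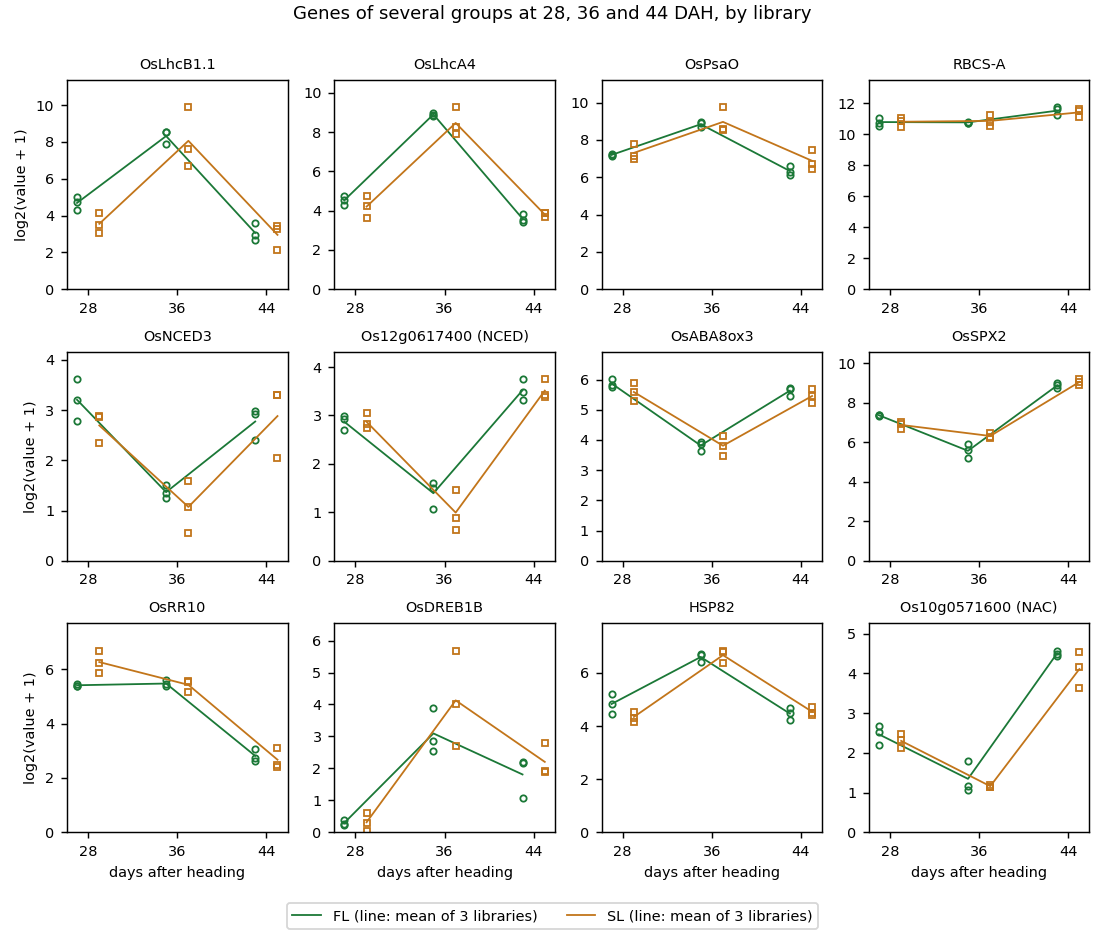
Level of 12 genes from several groups, as log2(value + 1), at 28, 36 and 44 DAH, with each library as a point, FL in green and SL in orange, and lines through the means of 3 libraries. OsLhcB1.1, OsLhcA4, OsPsaO and HSP82 are highest at 36 DAH, both NCED genes and OsABA8ox3 are lowest there, and OsSPX2 and Os10g0571600 are highest at 44 DAH.

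**Figure D5:**
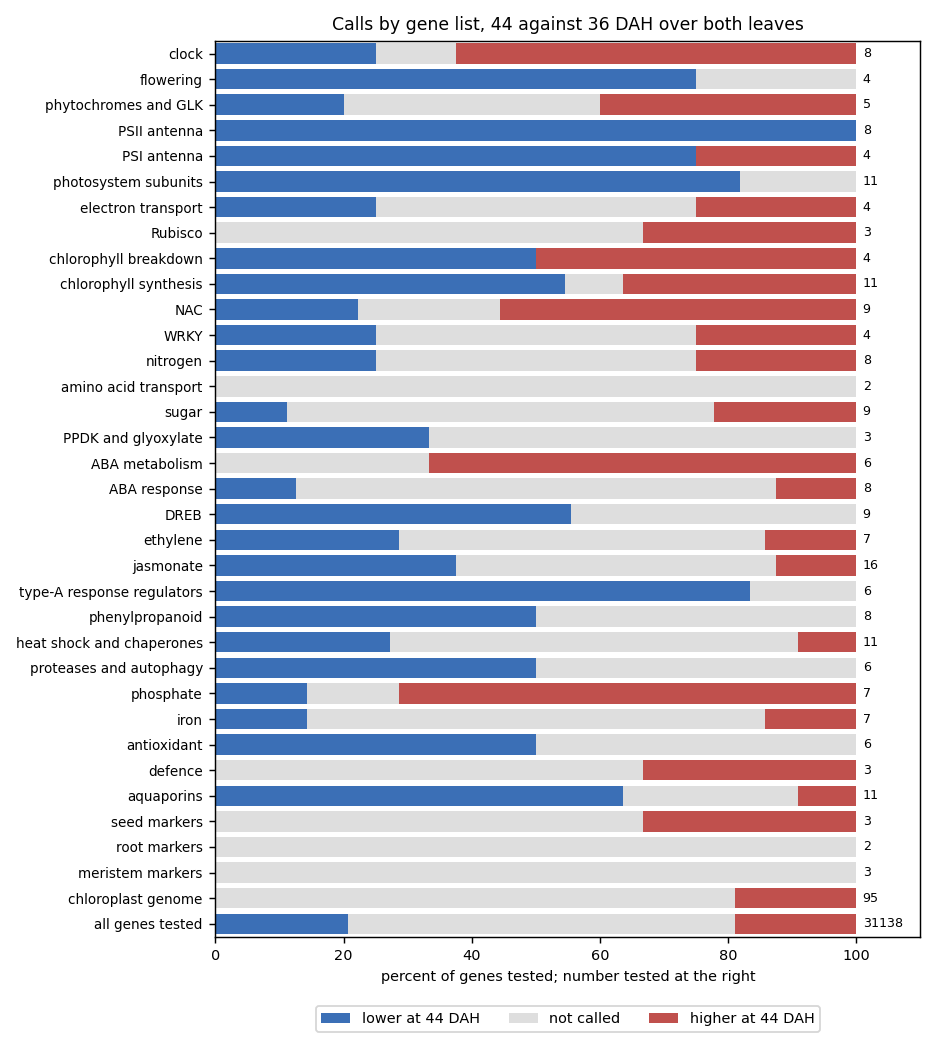
Share of the tested genes of each list that were lower at 44 DAH (blue), not called (grey) or higher (red), with the number tested at the right and all 31138 genes for comparison. All 8 photosystem II antenna genes and 5 of 6 type-A response regulators are lower, against 20.7% of all genes. The lists were chosen with earlier results of these data known.

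The genes with the largest changes among those with a description were taken by rule in addition to the lists, and because they were picked by the size of the change their values are given as a description. Of the 15 that rose most, OsGI is described above. Os04g0675400, described as similar to a DnaJ chaperone, had 0.453 to 2.20 CPM at 36 DAH and 56.5 to 115 at 44 DAH (log2 change 5.31). Os06g0298200, with a CCT motif, a domain found in plant regulators of the clock and flowering, had 4.75 to 10.1 against 211 to 285 CPM (4.94). Os04g0583900, described as similar to LHY and distinct from OsCCA1, had 22.5 to 44.3 against 656 to 1014 CPM (4.73). Its level therefore moved against that of OsCCA1. SAPK9, a kinase of the SnRK2 family that acts in ABA and osmotic stress signalling, had 3.96 to 5.99 against 100.6 to 122 CPM (Os12g0586100, 4.28). The light-induced gene LIR1 (Os01g0102900) had 31.5 to 61.9 against 432 to 766 CPM (3.75).

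Os05g0589200, with a domain of RNA polymerase sigma factors, had 2.32 to 3.10 CPM at 36 DAH and 31.7 to 47.6 at 44 DAH (3.41). Os06g0652000, described as a T3/T7-like RNA polymerase, the type that plants use in mitochondria and chloroplasts, had 3.64 to 11.01 against 67.6 to 109 CPM (3.54). GYRA (Os03g0812000), a DNA gyrase subunit, had 8.47 to 13.1 against 99.1 to 154 CPM (3.38), and Os06g0671700, with a toprim domain as found in topoisomerases and primases, changed by 3.71. The rest were PPT2 (Os08g0344600, 3.81), a cysteine synthase (Os01g0814800, 3.37), the cellulose synthase CESA2 (Os03g0808100, 3.36), the B-box gene Os02g0724000 (3.34), and NIGT1 (Os02g0325600, 3.29), a GARP repressor induced by nitrate.

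Of the 15 genes that fell most, 5 were LhcB genes and the others included OsLhcA4, OsPRR95 and OsRR10. Os06g0728700, a homeodomain-like gene, had 193 to 258 CPM at 36 DAH and 20.004 to 24.5 at 44 DAH (-3.24), with the smallest standard error of these genes (0.08). Os03g0161900, described as similar to heat stress factor A-2d, had 76.4 to 107 against 8.23 to 13.2 CPM (-3.02). CML31 (Os01g0955100), a calmodulin-like protein gene, had 17.2 to 57.1 against 1.53 to 3.65 CPM (-3.18). Os05g0170950, described as a plastid phosphoenolpyruvate/phosphate translocator, had 113 to 143 against 15.6 to 23.2 CPM (-2.72). The remaining ones were a leucine-rich repeat gene (Os08g0247600, -2.81), a methyltransferase (Os10g0181600, -2.76) and a lipase (Os04g0657500, -2.66).

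The means at 28 DAH of some of the ranked genes, picked as examples, are set beside these values, again without a test. How common either pattern was among the ranked genes cannot be read from them. Os04g0675400 had 69.7 CPM in FL and 77.8 in SL, SAPK9 86.2 and 105, and Os06g0728700 27.2 and 24.1. In these the level at 28 DAH was much nearer to that at 44 DAH than to that at 36 DAH. NIGT1 had 7.53 CPM in FL and 3.64 in SL at 28 DAH, nearer to 36 DAH, as in OsRR10.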

How the data were processed

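Per the file headers and the study's methods, the authors deposited 1 table of signal values for 38026 genes, which are CPM on library sizes scaled by the TMM method of edgeR. Reads were processed by them with CASAVA 1.8.2, cutadapt 1.2.1, TopHat2 2.0.10, Bowtie and HTSeq 0.6.1 on the build IRGSP-1.0, from a stranded poly(A) kit. The quantile normalization of the methods was not in the values. All values were whole multiples of 1 read within 0.01 reads, so that reads per library were recovered (5713546 to 17205973). The ± values are standard errors of limma from the spread between libraries, while the floor of 3 reads covers counting error only.

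Values were tested as log2(value + 1) with limma 3.58.1 (trend) in R 4.3.3, with leaf and day as terms for the change over both leaves and 4 groups for each leaf and for the difference between leaves. The 31138 genes above 0 in any of the 12 libraries entered, and the adjustment for multiple tests was that of Benjamini and Hochberg, with a threshold of 0.05. A fold change on this scale understates the change of low genes. The quasi-likelihood test of edgeR 4.0.16 on recovered reads was an alternative and called 12204 genes, of which 11654 were shared. Other alternatives were a pseudocount of 0.1, quantile normalization, equal column sums, a filter (a value of at least 1 in 3 libraries), all 36 libraries, robust estimation, a replicate block and each library left out. The test was also run on simulated counts with the same dispersion for every gene and changes in few genes. No library stood apart in that simulation, so it does not show how the test behaves on these data.

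Named genes were all members of 33 gene lists (311 genes, 220 kept after matching, 216 tested, 4 at 0 in all 12 libraries) and, in each direction, the 15 with the largest change among described genes with an adjusted p below 0.05, a mean of at least 5 CPM at either time point and no overlap in either leaf. The members and lists were chosen with earlier results of these data known. List genes were left out where no source gave a name for them, and 3 because the annotation contradicted the name. Gene names came from the table, the study and the synonyms of ASM3414082v1 (23729 of 38026 identifiers matched), which is not the build used, so no coordinates are given. No column of values was left out, and no column of comparisons was used. One listed gene is not reported here.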

Additional observations from a re-analysis of the deposited data

How the results depend on the processing

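Over both leaves, 11728 to 14578 genes were called under the alternatives that kept all libraries, from the filter on low values to the fit on all 36 libraries, and 11034 to 12724 with 1 library left out, against 12326. The share of calls that were higher stayed between 46.8% and 49.0%, and the median change of all genes was -0.01 after quantile normalization. With 1 library left out, calls ranged from 6415 to 9775 in FL, from 5702 to 8435 in SL, from 140 to 152 among the named genes (148 with all) and from 119 to 131 among the list genes (127). The named genes are the list genes and the ranked ones, which were picked as called, so their range is no separate support. Without both libraries that stood apart, an alternative chosen after seeing the data, calls were 11993 in FL and 9116 in SL. Further list counts, higher and lower, then became 3 and 8 for jasmonate, 2 and 1 for ethylene and 1 and 4 for antioxidant genes. They became 4 and 2 for NAC, 2 and 2 for WRKY, 0 and 6 for DREB and 0 and 3 for phenylpropanoid genes. For sugar they became 3 and 1, for chlorophyll synthesis 5 and 6, for phytochrome and GLK genes 3 and 1, and for Rubisco 2 and 1.

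The difference between leaves, at 0 genes, was 6 in the fit on all 36 libraries and 0 to 1 with 1 library left out. Of the 6, Os03g0308100 had means of 26.3 CPM at 36 DAH and 68.0 at 44 DAH in FL, and 32.5 and 47.6 in SL. The others of the 6 had group means of at most 3.46 CPM. The cause of these differences was not tested. Of list genes whose calls the report counts without naming them, OsSUT1, OsATG5, OsCAD2, OsACS2, OsERS2, OsTIP2;2 and Os07g0683200 were called with all libraries but not without at least 1 of the 12 libraries (adjusted p of limma up to 0.0897). The root marker Lsi1, not called, ranged from -0.16 to 0.0012 with 1 library left out.

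Replicate numbers were not taken to pair the samples. Same-numbered libraries of 36 and 44 DAH of a leaf had correlations of their deviations from -0.812 to 0.228, and same-numbered FL and SL libraries of a day had 0.00988 to 0.576, positive in all 6 pairs but not over 0.1 in replicate 2 of 36 DAH. Differently numbered libraries of 36 and 44 DAH of a leaf had -0.584 to 0.799. The highest was that of SL at 36 DAH replicate 3 with SL at 44 DAH replicate 2, the libraries that stood apart. With the number as a replicate block, 11811 genes were called over both leaves, 7988 in FL, 6767 in SL, 0 for the difference, 149 named genes and 128 list genes.

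At 5713546 to 17205973 reads, genes near the floor are measured with few reads.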

Other observations

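Genes of the chloroplast genome, which are read here only as far as their transcripts carried through poly(A) selection, rose in 18 of the 95 tested and fell in none (median change 0.29, against -0.02 over all genes). The share that rose was about that of all genes (18.9% higher, beside 20.7% lower), and 16 rose without the 2 libraries that stood apart. FL had 4 higher, beside 13.3% of all genes, and SL 15 higher, beside 12.1%, and none passed for the difference between leaves. The ribosomal protein gene rpl33 had 2.07, 2.90 and 1.66 CPM in FL and 1.22, 1.22 and 1.90 in SL at 36 DAH, and 6.25, 5.70 and 8.48 in FL and 4.43, 3.96 and 5.43 in SL at 44 DAH, so that the time points did not overlap (1.24, adjusted p = 3.56e-05 in limma). The gene psaA, for a reaction centre protein of photosystem I, had 29.8 to 149 CPM in FL at 36 DAH and 77.5 to 157 at 44 DAH, which overlapped, and 24.2 to 67.1 against 89.9 to 145 in SL, which did not (1.19, adjusted p = 0.0264). For rbcL, the large subunit of Rubisco, the change of 0.90 did not pass (adjusted p = 0.139). Reads of both organelles made up 0.107% to 0.348% of a library. None of the 48 mitochondrial genes tested passed (median change -0.01), and 1 fell without the 2 libraries. Whether the amount of transcripts carried through poly(A) selection differed between time points was not tested.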
